A study of Rattus norvegicus with 4 samples.

Results

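Expression of 8 transcription factors that set and keep the identity of the gut epithelium was examined in rat colon. They were *Cdx2*, *Gata4*, *Gata6*, *Foxa1*, *Foxa2*, *Onecut1*, *Klf4* and *Klf5*, chosen by gene symbol. Each of the 8 had 1 measured row, among 6963 named genes with a measured row. Colon tissue of male rats was compared on one-color NimbleGen arrays, 1 array per rat, with 2 control rats and 2 MSCT rats. MSCT rats had inflammatory bowel disease (IBD) and then received mesenchymal stem cells (MSCs). Per the study's methods the animals were Sprague Dawley rats, colitis was induced with trinitrobenzene sulfonic acid (TNBS) in ethanol, and GFP-labeled MSCs from a commercial source were given into the tail vein. The paper calls the control rats of the chips IBD rats, whereas the sample descriptions call them normal rats, so they are named the control group. Several sampling days are described for the chips without saying which rat belongs to which, and no age is given. The study's methods place the samples at the lesion, which normal rats would not have, and describe no separation into layers. The arrays are therefore taken to hold epithelium, muscle, nerve and infiltrating cells together.

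In the intestine, a small network of transcription factors specifies which kind of epithelium forms and which cell types it makes. *Cdx2*, a caudal homeobox factor, is the central regulator of intestinal identity. *Gata4* is known as a factor of the proximal small intestine and *Gata6* acts along the whole gut. The forkhead pioneer factors *Foxa1* and *Foxa2* open chromatin in endoderm and take part in goblet and enteroendocrine cell formation. *Onecut1* (hepatocyte nuclear factor 6) is best known from liver, pancreas and duodenum. The Krüppel-like factors work at opposite ends of the crypt, *Klf5* in dividing cells and *Klf4* in differentiated cells, including goblet cells.

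None of the 8 factors differed between MSCT and control rats beyond the spread between the arrays. The screen of the study asks for more than 2-fold change at an unadjusted p under 0.05. With limma, 850 of all 18350 measured rows passed this screen (4.63%), and 0 of the 8 members did. At such a share, 0 of 8 does not set the members apart from other rows. By limma 12.0% of all rows (4.80% with MSCT higher and 7.17% with MSCT lower) and 0 of the 8 members had an unadjusted p under 0.05. The methods' t-test, a plain test with equal variances, gave 9.66% of rows and 0 members at that p, and 2.11% of rows and 0 members past the screen. The unadjusted p of the members lay between 0.157 and 0.891 and the adjusted p over all rows between 0.555 and 0.965 by limma. After Benjamini-Hochberg adjustment 0 rows of the table passed, with limma as with the methods' t-test. By these tests a gene described as risen or fallen therefore passed the unadjusted screen only. With limma and a variance that depends on intensity, 387 rows and 0 of the 8 members passed an adjusted p of 0.05. The MSCT mean was higher for 5 members and lower for 3. In no member was the difference between the groups larger than both distances between replicates of 1 group. The median difference was 0.10 on the log2 scale for the members and -0.02 for all rows, and the median size of a difference was 0.29 and 0.28. In whole tissue, fewer cells of a type and less RNA per cell cannot be told apart, which holds for each value given here.

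**Figure D1:**
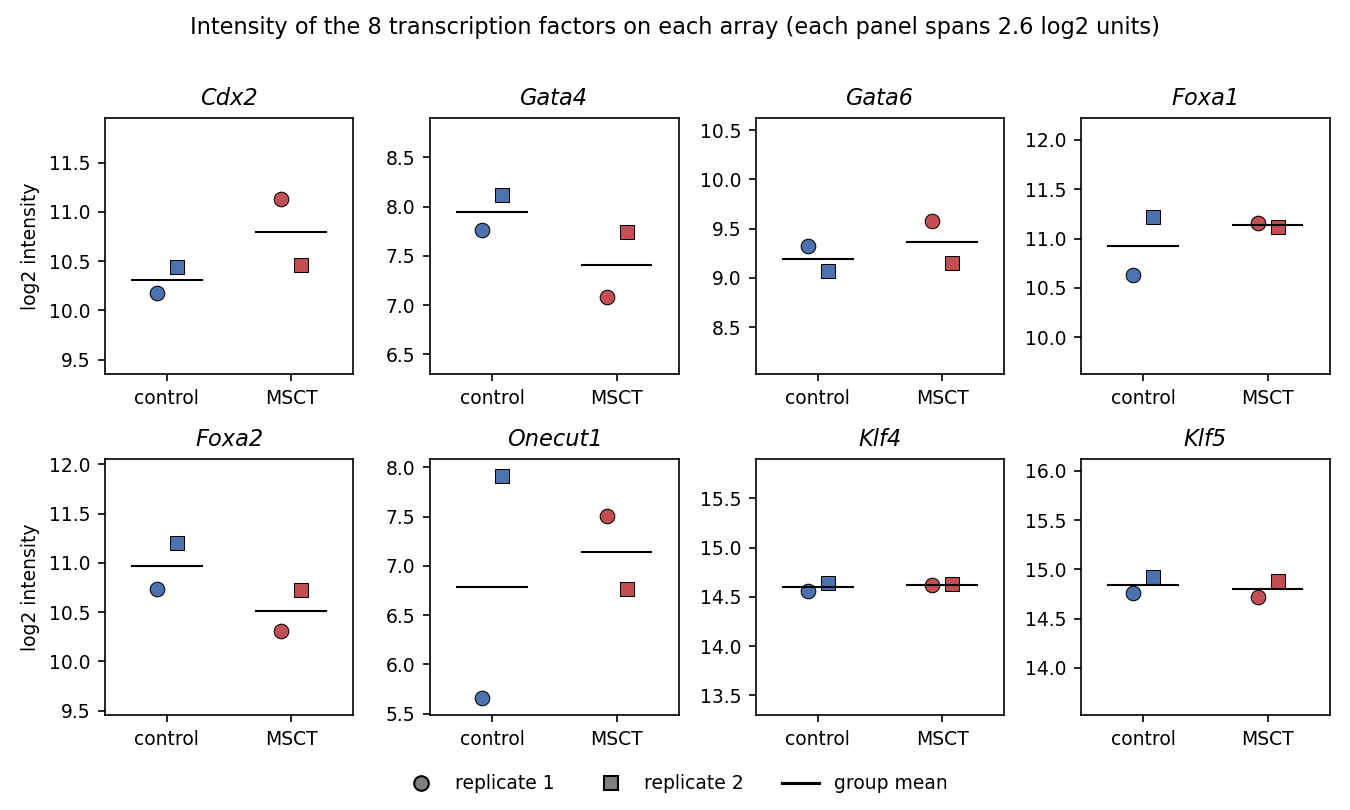
Log2 intensity of each factor on the 4 arrays, with control arrays in blue, MSCT arrays in red, replicate 1 as circles, replicate 2 as squares and group means as lines. Each panel spans 2.6 log2 units, so the flat pattern of *Klf4* and *Klf5* and the distant control arrays of *Onecut1* can be compared by eye.

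*Cdx2* (NM_023963) had log2 intensities of 10.18 and 10.44 on control replicates 1 and 2 and of 11.13 and 10.46 on MSCT replicates 1 and 2. MSCT replicate 1 stood above the other 3 arrays, and MSCT replicate 2 lay only 0.02 above the higher control array. The means were 10.31 ± 0.18 (SD, n = 2) and 10.80 ± 0.47 (SD, n = 2). The difference was 0.48 (standard error 0.30), 1.40-fold, with a 95% interval from -0.32 to 1.28 that reached past 2-fold. Without MSCT replicate 1 the difference was 0.15. The groups of *Cdx2* thus did not overlap, as in 21.3% of all rows with MSCT higher.

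The promoter window of *Cdx2* in the RefSeq table of the rat assembly GRCr8 is printed because of a forkhead motif of the kind that FOXA proteins bind. Among the 5 member windows in that table it is the only one with TGTTTAC or TGTTTGC on either strand. Other spellings of the motif were not searched. The window holds 250 bases before and 50 bases after the annotated start, at chr12:12762654-12762953 on the plus strand. Capitals mark the motif, TGTTTAC on the opposite strand, whose first printed base lies 196 bases before the start.
Cdx2 promoter: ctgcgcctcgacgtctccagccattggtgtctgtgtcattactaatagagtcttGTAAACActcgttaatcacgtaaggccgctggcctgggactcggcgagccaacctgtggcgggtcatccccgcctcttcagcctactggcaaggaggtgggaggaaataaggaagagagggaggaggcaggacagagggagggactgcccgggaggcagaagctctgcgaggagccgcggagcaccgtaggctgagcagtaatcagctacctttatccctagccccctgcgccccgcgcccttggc
TGTTTAC or TGTTTGC on either strand was present in 8.43% of the 33469 windows of this length. These matches are letters in a window and were not measured as binding sites.

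*Gata4* (NM_144730) lay at 7.76 and 8.12 in control rats and at 7.08 and 7.74 in MSCT rats. MSCT replicate 1 was the lowest array, and MSCT replicate 2 lay 0.02 below the lower control array. The difference was -0.53 (standard error 0.31, 95% interval -1.35 to 0.30), the largest in size and the smallest p among the members, and was not past the test (limma adjusted p = 0.555). Without MSCT replicate 1 it was -0.20 and without MSCT replicate 2 it was -0.86. *Gata4* belonged to the dimmest 25% of rows, where the median distance between replicates was 0.52 between the control arrays and 0.55 between the MSCT arrays. *Gata6* (NM_019185) lay at 9.32 and 9.07 in control rats and at 9.58 and 9.15 in MSCT rats. Its groups overlapped, with control replicate 1 above MSCT replicate 2. The difference was 0.17 (standard error 0.25, 95% interval -0.49 to 0.83), which stayed within 2-fold either way.

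By the likeness of the pattern over the 4 arrays, the named genes closest to *Gata4* were *Mx2*, *Krt36* and *Plaat5*, out of 6955 compared. Their log2 values, each centered on the mean of the gene, lay at a root mean square distance of 0.0451, 0.0523 and 0.0555 from those of *Gata4*. *Mx2* is known as an interferon-induced GTPase and *Krt36* as a hair-type keratin. Their differences were -0.58, -0.49 and -0.61, and by limma none passed (adjusted p from 0.500 to 0.555). With 4 arrays this likeness is a description only.

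*Foxa1* (NM_012742) lay at 10.63 and 11.22 in control rats and at 11.16 and 11.12 in MSCT rats. The MSCT arrays were 0.05 apart and fell between the control arrays, which were 0.59 apart. The difference was 0.21 (standard error 0.27, 95% interval -0.50 to 0.93) and became -0.08 without control replicate 1 and 0.51 without control replicate 2. *Foxa2* (NM_012743) lay at 10.73 and 11.20 in control rats and at 10.31 and 10.72 in MSCT rats. Both MSCT arrays were below both control arrays, the nearest 2 by 0.01. The difference was -0.45 (standard error 0.28), from 10.96 ± 0.33 to 10.51 ± 0.29 (SD, n = 2 each), with a 95% interval from -1.18 to 0.29 and an adjusted p of 0.567 by limma. It ranged from -0.68 to -0.21 when single arrays were left out. Of the members, *Gata4* and *Foxa2* had groups that did not overlap with MSCT lower, as did 24.5% of all rows. In both directions this made 3 of 8 members against 45.8% of all rows.

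*Onecut1* (NM_022671) was the least precise of the members. Intensities of 50.5 and 241 were measured in control rats and of 183 and 109 in MSCT rats, or 5.66, 7.91, 7.51 and 6.77 on the log2 scale. Both MSCT arrays lay between the control arrays, which were 2.26 apart. Only 108 rows (0.589%) had control arrays at least this far apart, and in 85 of these control replicate 2 was the higher array, as for *Onecut1*. The difference was 0.36 (standard error 0.82), with a 95% interval from -1.82 to 2.53. It was -0.77 without control replicate 1. Without control replicate 2 it was 1.49 and passed the screen (limma adjusted p = 0.320), the only case in which a member passed. The control group was then a single dim array, assumed to vary like the MSCT arrays, from which alone the spread was taken. *Onecut1* was among the dimmest 4.23% of rows. Of the 6 measured genes of a small intestinal list, *Fabp2*, *Apoa4*, *Apoc3* and *Slc5a1* were also higher on control replicate 2. *Fabp2*, a fatty acid binding protein, lay at 6.56 and 9.02, and *Apoa4*, an apolipoprotein of chylomicrons, at 8.92 and 10.96. *Rbp2*, a retinol binding protein, had the opposite order at 7.78 and 6.97, and *Apob* lay at 7.76 on both. The summed intensity of the 6 was 5008 and 8438 in control rats and 8596 and 9284 in MSCT rats. Of the 4 measured liver and pancreas markers, *Apoh* (7.68 and 9.80) and *Ttr* (8.15 and 9.90) were also higher on control replicate 2. *Alb* (11.58 and 11.36) and *Cel* (8.74 and 7.33) had the opposite order. The part of either list in the *Onecut1* values was not tested.

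*Klf4* (NM_053713) lay at 14.56 and 14.64 in control rats and at 14.62 and 14.63 in MSCT rats. The MSCT arrays fell between the control arrays, and all 4 arrays were within 0.08 of each other. The difference was 0.03 (standard error 0.18), with a 95% interval from -0.46 to 0.51, that is between 0.727-fold and 1.43-fold. *Klf5* (NM_053394) lay at 14.76 and 14.92 in control rats and at 14.72 and 14.88 in MSCT rats. In both groups replicate 2 was the higher array, by 0.17 and 0.15. The difference was -0.04 (standard error 0.20), with a 95% interval from -0.56 to 0.48, between 0.677-fold and 1.40-fold. With a variance that depends on intensity the intervals were -0.22 to 0.27 for *Klf4* and -0.30 to 0.22 for *Klf5*. At most 0.485% of rows were brighter than these. The deposited table has no saturation flags, and whether these spots were saturated was not tested.

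**Figure D2:**
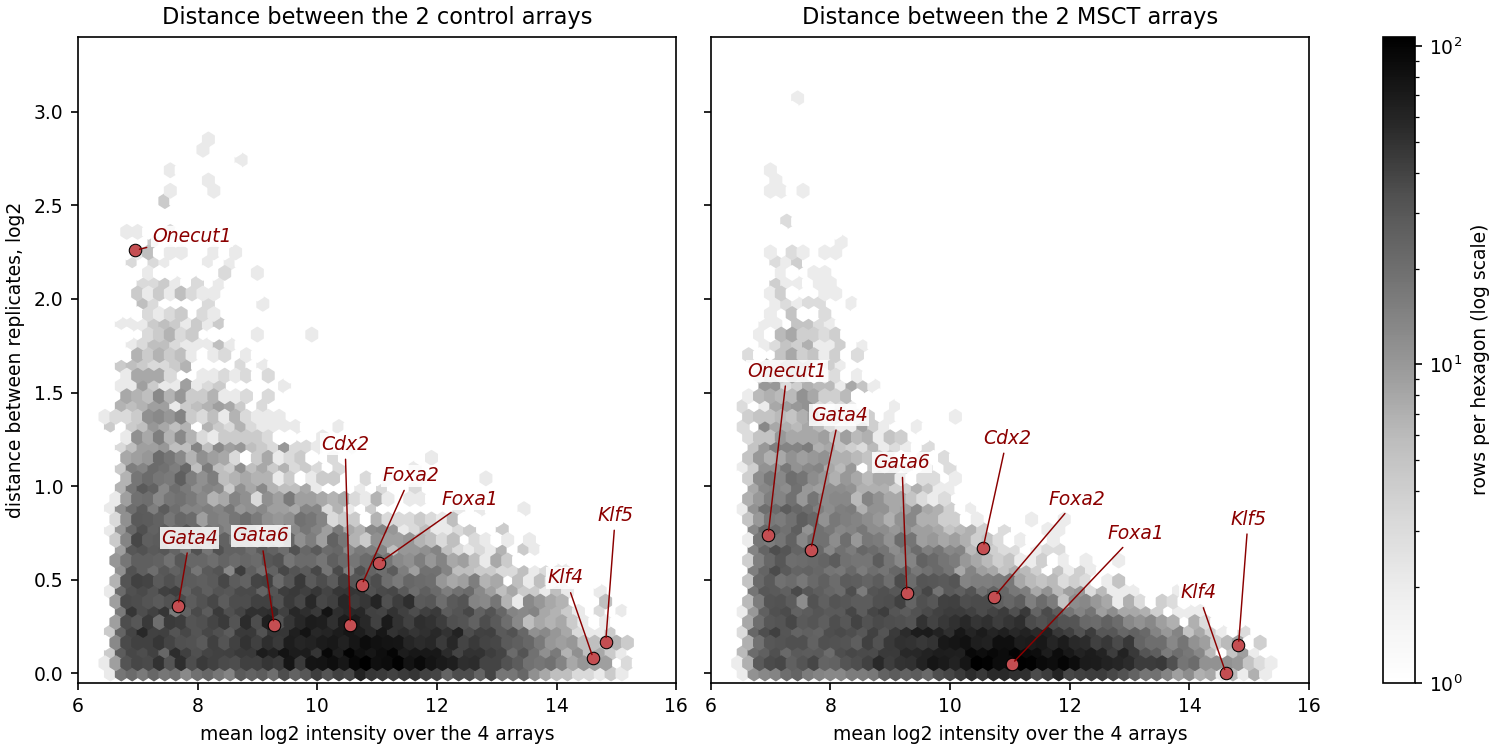
Distance between the replicates of a group (y axis, log2) against mean log2 intensity over the 4 arrays (x axis), for the control arrays on the left and the MSCT arrays on the right. Gray hexagons count all 18350 rows on a log scale and red points are the 8 factors. *Onecut1*, with control arrays 2.26 apart, stands at the upper edge among dim rows, and *Klf4* and *Klf5* stand at the bright end with distances of at most 0.17.

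Among the members the standard error was smallest for the bright *Klf4* and *Klf5* and largest for the dim *Onecut1*, while that of the other 5 lay between 0.25 and 0.31 without following brightness. Over all rows, the median SD within groups was 0.47 in the dimmest 25% of rows, which hold *Gata4* and *Onecut1*, and 0.31 in the next, which holds *Gata6*. It was 0.19 in the third, with *Cdx2*, *Foxa1* and *Foxa2*, and 0.14 in the brightest, with *Klf4* and *Klf5*. Brightness depends on the probes as well as on the transcript, and levels of different genes were not compared. The 95% interval lay within 2-fold either way for *Gata6*, *Foxa1*, *Klf4* and *Klf5*, as it did for 51.0% of all rows. For *Cdx2*, *Gata4*, *Foxa2* and *Onecut1* it reached 2-fold, so a change of that size lay within the interval. With a variance that depends on intensity, the intervals were -0.08 to 1.04 for *Cdx2*, -1.62 to 0.56 for *Gata4*, -0.97 to 0.07 for *Foxa2* and -1.27 to 1.99 for *Onecut1*, so that *Foxa2* no longer reached 2-fold, and those of *Gata6* and *Foxa1* were -0.52 to 0.86 and -0.27 to 0.70. Of the 8 members, 7 were higher on control replicate 2 than on control replicate 1, with *Gata6* as the exception, against 51.5% of all rows. When single arrays were left out, *Cdx2* stayed positive and *Gata4* and *Foxa2* stayed negative, while the other 5 changed sign.

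**Figure D3:**
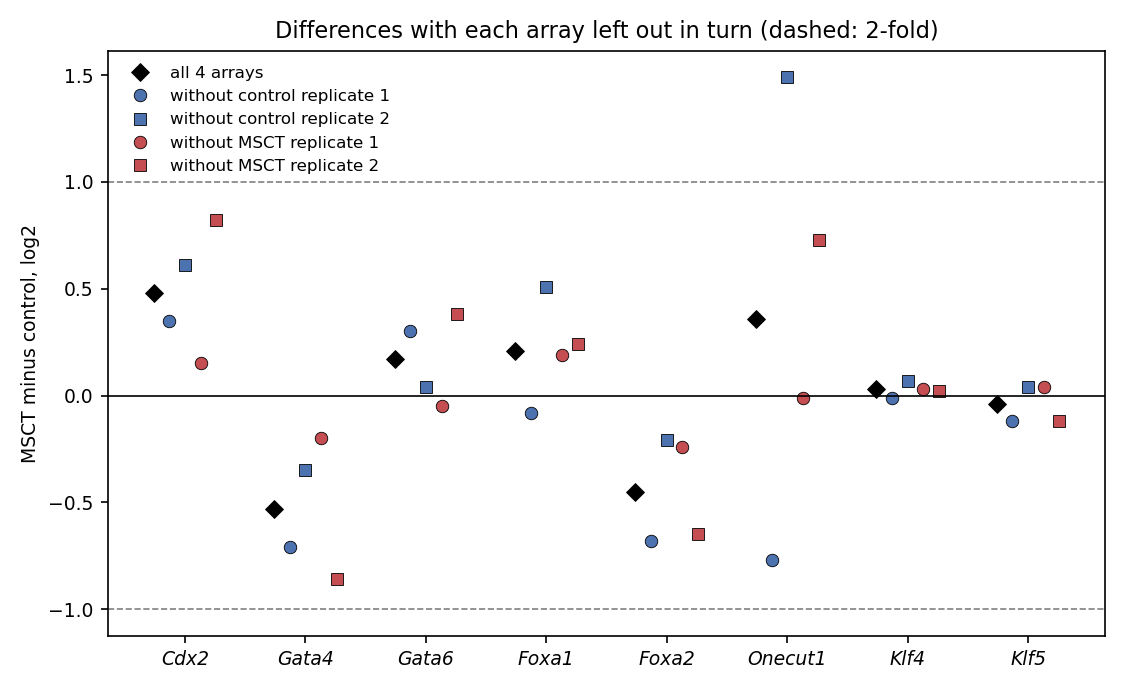
Difference between MSCT and control (y axis, log2) for each factor (x axis) with all 4 arrays (black diamonds) and with 1 array left out (blue for a control array, red for an MSCT array). Only *Onecut1* crossed the dashed 2-fold lines, at 1.49 without control replicate 2, and it moved to -0.77 without control replicate 1.

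Relatives of the same families were taken from a list of 24 genes, of which 8 were measured by name, 3 (*Gata1*, *Gata3* and *Gata5*) were blank on all arrays and 13 had no named row. Of the 8, 2 passed the screen with MSCT higher and 0 with MSCT lower, against 2.12% and 2.51% of all rows. *Foxa3*, the third forkhead factor of the family and known from goblet cells and liver, lay at 10.58 and 11.12 in control rats and at 12.86 and 12.71 in MSCT rats. Both MSCT arrays were well above both control arrays. The difference was 1.94 (standard error 0.26, 95% interval 1.25 to 2.63), with an adjusted p of 0.257 by limma. *Gata2*, a factor of blood, mast cell and endothelial lineages, lay at 7.03 and 7.47 in control rats and at 8.95 and 8.04 in MSCT rats. Its difference was 1.24 (standard error 0.39, 95% interval 0.22 to 2.27), and it did not pass by the methods' t-test, nor without control replicate 1, control replicate 2 or MSCT replicate 1 (differences of 1.02, 1.47 and 0.79). The other 6 were Krüppel-like factors that did not pass, from *Klf2* at -0.49 to *Klf10* at 0.85. The control arrays of *Klf10* were far apart, at 10.22 and 11.54.

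**Figure D4:**
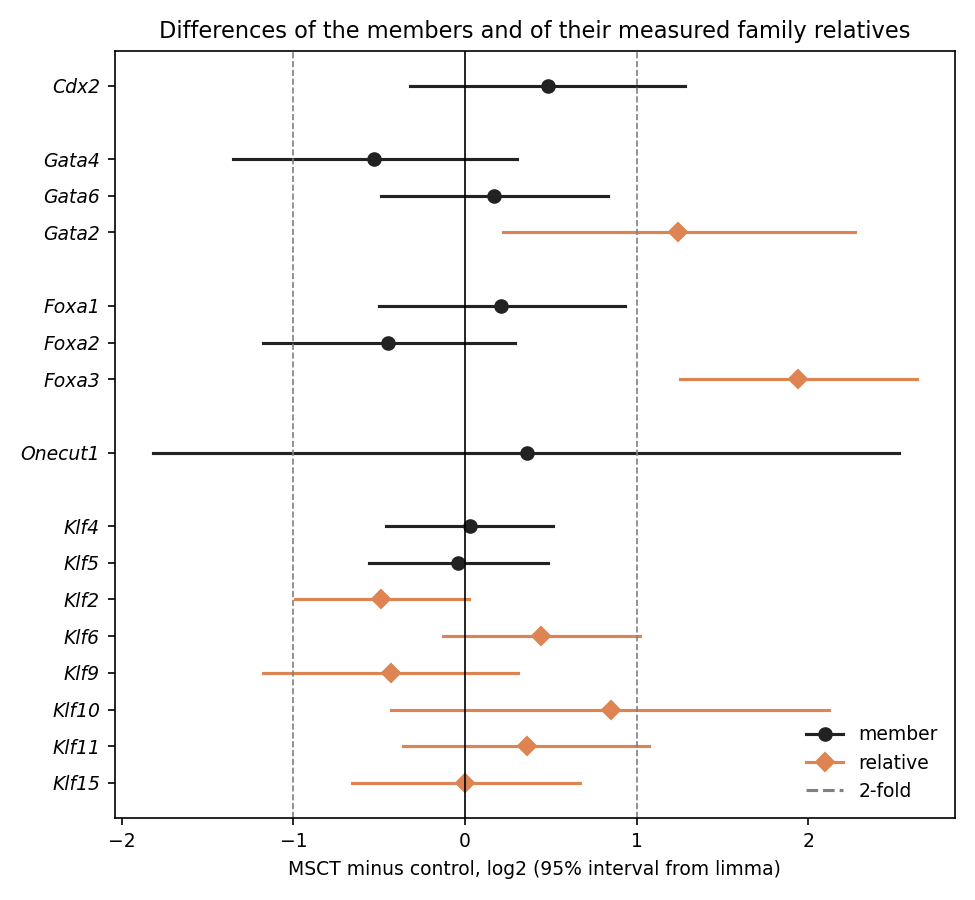
Difference between MSCT and control (x axis, log2) with its 95% interval from limma for the 8 members (black circles) and the 8 measured relatives (orange diamonds), grouped by family. The intervals of all members include 0, and those of *Foxa3* (1.25 to 2.63) and *Gata2* (0.22 to 2.27) do not.

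The difference of *Foxa3* exceeded that of *Foxa1* by 1.72 and that of *Foxa2* by 2.39 on the log2 scale. The difference of *Gata2* exceeded that of *Gata4* by 1.77 and that of *Gata6* by 1.07. In each of these 4 pairs the log ratio of the relative to the member was higher on both MSCT arrays than on both control arrays. *Foxa3* and *Gata2* had that order by themselves, as did 21.3% of all rows. The pairs were chosen with earlier results known, so the order of the ratios is no separate support. An exact permutation of 2 arrays against 2 gave p = 0.333 (two-sided) for each pair, also after adjustment over the 4 pairs. This is the smallest p the design allows, so these contrasts within families were not established by the exact test.

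The promoter windows of *Foxa2* and *Foxa3* are shown because these paralogs had the widest gap among the 4 pairs. That of *Foxa2* lies at chr3:155927459-155927758 and that of *Foxa3* at chr1:87799436-87799735, both on the minus strand of GRCr8 and printed in the direction of the gene. Capitals mark ATTGAT, a core of sites bound by ONECUT proteins, in *Foxa2*, 136 bases before the start, and TATAAA in *Foxa3*, 82 bases before the start.
Foxa2 promoter: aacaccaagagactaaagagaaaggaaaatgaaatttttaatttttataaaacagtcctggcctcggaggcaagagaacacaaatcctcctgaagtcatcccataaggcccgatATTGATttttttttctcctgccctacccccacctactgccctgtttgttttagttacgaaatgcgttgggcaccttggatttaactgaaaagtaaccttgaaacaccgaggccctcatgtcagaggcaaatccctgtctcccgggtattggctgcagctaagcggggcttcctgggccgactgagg
Foxa3 promoter: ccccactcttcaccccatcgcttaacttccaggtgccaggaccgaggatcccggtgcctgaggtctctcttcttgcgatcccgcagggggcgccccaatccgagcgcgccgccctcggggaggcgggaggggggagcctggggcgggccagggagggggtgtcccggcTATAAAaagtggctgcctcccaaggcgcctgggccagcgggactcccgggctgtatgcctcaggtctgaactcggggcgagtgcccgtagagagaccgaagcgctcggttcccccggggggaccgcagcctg
The *Foxa2* window held 8 CG dinucleotides and 46.7% G and C, and the *Foxa3* window 25 and 70.3%, with a median of 7 CG dinucleotides over all windows. The windows of *Klf5*, *Cdx2*, *Gata6* and *Klf4* held 25, 18, 12 and 11, with 65.3%, 61.0%, 64.7% and 45.0% G and C. The part of composition or motifs in the expression values was not tested. TATAAA, not capitalized there, was also found in *Foxa2*, on both strands at overlapping positions. ATTGAT was present on either strand in 8.06% of all windows and TATAAA in 14.2%. Among the 5 members with a window, AGATAA or TGATAA, the letters of a GATA site, was found in *Klf4* alone (18.9% of all windows). GGGTGTG or GGGGTGG, of Krüppel-like factors, was found in *Gata6* alone (19.3%). TTTATG or TTTATTG, of CDX proteins, was found in 0 of the 5 (16.5%). *Gata4*, *Foxa1* and *Onecut1* were not in the promoter table.

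A wider list of 40 transcription factors of gut cell fate had 15 measured genes. Of these, 1 passed the screen with MSCT higher and 0 with MSCT lower, against 2.12% and 2.51% of all rows. That gene was *Isl1*, a LIM homeobox factor of endocrine and nerve cells, at 6.79 and 6.64 in control rats and 8.08 and 7.80 in MSCT rats. Its difference was 1.23 (standard error 0.21, limma adjusted p = 0.260). *Hnf4a*, a nuclear receptor that acts with *Cdx2* in enterocytes, differed by -0.30 and did not pass. *Elf3*, an epithelial ETS factor, and *Vdr*, the vitamin D receptor, had an unadjusted limma p under 0.05 at less than 2-fold, with differences of -0.72 and -0.75 (adjusted p = 0.330 and 0.324). The median difference of the 15 genes was -0.11.

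Genes that are known targets of CDX2, GATA and FOXA factors, among others, in enterocytes and L cells were described from a list of 21, of which 15 were measured and the other 6 had no named row. Of the 15, 5 passed the screen with MSCT higher (2.12% of all rows did so) and 0 with MSCT lower, and the median difference was 0.40. Like the other lists here, this list was chosen with earlier results of these data known. The count is therefore a description and no test of enrichment. *Gcg*, which encodes proglucagon of the L cells, lay at 8.67 and 8.83 in control rats and 11.16 and 11.17 in MSCT rats. It rose by 2.41 (standard error 0.19), with an adjusted p of 0.257 by limma, and by 2.34 to 2.49 with single arrays left out. The fatty acid binding genes *Fabp1* and *Fabp2*, the alkaline phosphatase *Alpi* and the apolipoprotein *Apob* were higher by 4.01, 3.38, 1.39 and 1.11. Of the 5, *Gcg* and *Fabp1* also passed by the methods' t-test. The control arrays of *Fabp1* lay at 6.34 and 8.18. Without control replicate 1 the difference of *Fabp1* was 3.09 and that of *Fabp2* was 2.15. *Alpi* did not pass without control replicate 1 (0.97) or without MSCT replicate 1 (1.15), and *Apob* did not pass without MSCT replicate 1 (0.81). The remaining 10 targets did not pass. *Cdh17*, the liver-intestine cadherin and a direct CDX2 target, differed by 0.00 (95% interval -0.64 to 0.64), *Slc26a3*, the chloride exchanger of the colon, by 0.22, and *Guca2a*, guanylin, by 0.17. *Mep1a*, a brush border protease, differed by -0.77 at less than 2-fold (limma adjusted p = 0.312).

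Cell cycle genes that KLF4 and KLF5 are known to regulate were taken from a list of 9, of which 8 were measured. Of these, 2 passed the screen with MSCT lower (2.51% of all rows did so) and 0 with MSCT higher. *Cdk1*, the mitotic kinase, lay at 9.75 and 9.74 in control rats and at 8.54 and 8.48 in MSCT rats. It fell by 1.23 on the log2 scale (limma adjusted p = 0.260). *Cdkn1b*, an inhibitor of cyclin-dependent kinases, fell by 1.32 (limma adjusted p = 0.289). These act in opposite directions on the cell cycle. *Ccnb1*, *Ccnd1* and *Cdkn1a* differed by -0.34, 0.42 and -0.34 and did not pass. *Klf4* and *Klf5* themselves differed by no more than 0.04 in size on the same arrays.

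**Figure D5:**
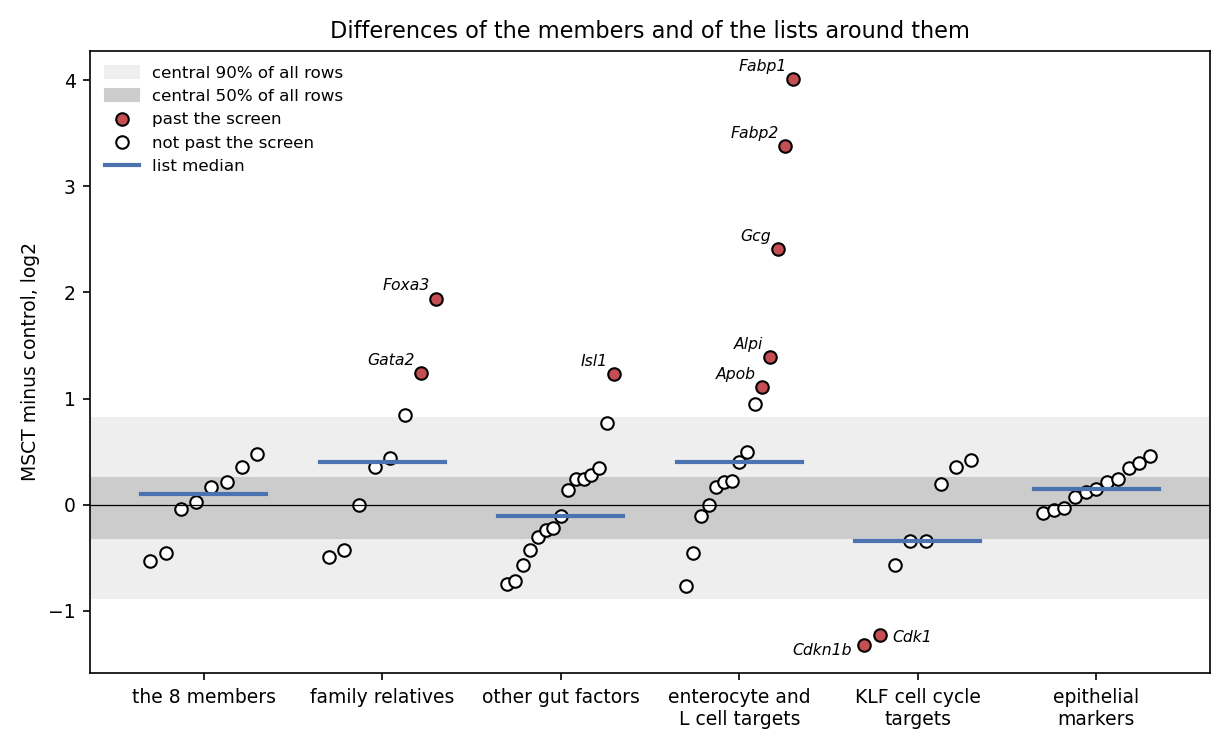
Difference between MSCT and control (y axis, log2) for the members and the measured genes of 5 lists (x axis), 1 point per gene, red where the gene passed the screen of p under 0.05 and over 2-fold by limma. Blue lines are list medians and gray bands hold the central 50% and 90% of all rows. The 8 members have a median of 0.10 and none is red. Of 15 targets 5 are red, up to *Fabp1* at 4.01. Of all rows, 4.63% passed this screen, a share at which 0 of 8 does not set the members apart. The lists were chosen with earlier results of these data known.

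Of 5 measured genes of a list for colon regions, 1 passed, *Retnlb*, a goblet cell resistin, with MSCT higher by 1.52. Of the 6 of the small intestinal list 2 passed, *Fabp2* and *Apob*, also with MSCT higher. Over all rows 2.12% passed with MSCT higher. Markers of the cell types in the pieces were measured on the same arrays. The 11 measured epithelial markers of 13 listed differed by -0.08 to 0.46, and 0 passed the screen. Both MSCT arrays were above both control arrays for 7 (21.3% of all rows) and below for 0 (24.5%). The summed intensity of the 11 was 229506 to 232582 on the control and 252813 to 260052 on the MSCT arrays. *Epcam*, the epithelial adhesion molecule, lay between 13.91 and 14.09 on all 4 arrays. The 6 measured smooth muscle markers of 11 listed also did not pass, with summed intensities of 142203 to 172440 and 155662 to 159909. Of 5 measured leukocyte markers of 12 listed, *Cd68* and *Csf1r* passed with MSCT higher, by 1.29 and 1.00 (2.12% of all rows did so). The difference of *Csf1r* was under 2-fold without control replicate 2 (0.96) or MSCT replicate 2 (0.97). *Cd14*, *Cd4* and *Cd8a* differed by -0.04, 0.37 and 0.01 and did not pass. The sums of the 5 were 12109 to 13480 and 14151 to 16602. Of 9 measured genes of enteric neurons and glia of 10 listed, 7 were lower in the MSCT group. Of these 1, *Elavl4*, passed, at -1.06 (2.51% of all rows passed with MSCT lower). *Elavl4* did not pass by the methods' t-test, nor without control replicate 1 (-0.67), MSCT replicate 1 (-1.17) or MSCT replicate 2 (-0.96). Their sums were 11967 to 12211 and 8917 to 9188. The 5 fibroblast genes of 7 listed and 3 endothelial genes of 6 listed did not pass, with sums of 31020 to 45404 and 46890 to 50295 for fibroblasts and of 1054 to 1521 and 1478 to 1820 for endothelium. Of 10 liver and pancreas markers 6, with the insulin genes among them, were blank on all arrays, and the 4 measured ones did not pass, with sums of 3971 to 4635 and 4497 to 4541. The part of these cell types in the values of the 8 factors was not tested.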

How the data were processed

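RNA of 4 pieces of rat colon was hybridized to one-color NimbleGen arrays. Scanning was on a GenePix instrument, NimbleScan read the images, and the authors deposited 1 linear intensity per RefSeq transcript and array. The submitters' processing notes name RMA without its role, and background correction and scaling between arrays are not described further in the sources used here. Median intensity was 848 to 893, and the correlation of log2 values over rows was 0.953 within the control group, 0.964 within the MSCT group and 0.934 to 0.959 between groups. Of 26420 rows, 18350 had values for all 4 rats and 8070 were blank throughout. Each value column belonged to 1 sample. The number of arrays limits the precision.

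Intensities were used as log2 values with no pseudocount, scaling or filter. limma 3.58.1 in R 4.3.3 (lmFit, eBayes) compared MSCT with control over all measured rows, with Benjamini-Hochberg adjustment. The groups follow the sample titles. Gene symbols came from the RefSeq table of GRCr8, matched by accession without version (7062 of 18350 rows, 7004 of 7292 NM rows and 58 of 11058 XM rows), with the row of highest mean where a gene had several. Members, lists and tests were chosen with earlier results of these data known, so they are not independent of them. Named are all members, list genes past the screen (up to 5 a direction and list), relatives of the members' families and the 3 genes closest in pattern to the member of smallest p. Other list genes and the promoter motifs were picked with the values known. The fit was tested on simulated data.

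Alternatives concerned scaling (quantiles, or medians made equal) and the test (plain t-test, intensity-dependent variance, array weights, replicate block). They also concerned the rows (without the dimmest 25% or 50%), the arrays (1 left out at a time), a fold limit of 1.5 and linear group means. Python 3.11.15 with pandas 2.3.3, SciPy 1.17.1 and matplotlib 3.10.9 was used. The median difference of all rows was -0.02, and 0.02 with equal array medians.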

Additional observations from a re-analysis of the deposited data

How the results depend on the processing

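Of 99 values of the 8 members under the alternatives, 90 kept their direction and their side of the screen, 8 changed sign and 1 passed the screen. The values from linear group means have no p, so for them only direction and size could be compared. After quantile normalization *Klf4* was at -0.03. With each array left out in turn, *Onecut1* ranged from -0.77 to 1.49, *Foxa1* from -0.08 to 0.51, *Gata6* from -0.05 to 0.38, *Klf5* from -0.12 to 0.04 and *Klf4* from -0.01 to 0.07. The number of members past the screen and with an unadjusted limma p under 0.05 then ranged from 0 to 1 (*Onecut1* without control replicate 2), and the number past an adjusted p of 0.05 was 0 under each alternative. Leaving out the dimmest 25% of rows removed *Gata4* and *Onecut1*, and the dimmest 50% also *Gata6*. Among the relatives, 2 genes past the screen became 1 by the plain t-test and without the dimmest 25% or 50% of rows, which removed *Gata2*. Among the other gut factors 1 became 0 without the dimmest 25% or 50%, where *Isl1* was not tested, and 3 with a fold limit of 1.5. Among the targets 5 became 2 by the plain t-test and 1 without the dimmest 50%, which removed *Fabp1*, *Fabp2*, *Alpi* and *Apob*. Among the KLF targets 2 became 1 without the dimmest 50%, which removed *Cdk1*. With single arrays left out these counts were 1 to 2, 1 to 2, 3 to 6 and 2 to 3. Over all rows, 850 past the screen became 388 by the methods' t-test, 251 without the dimmest 50%, 1565 without control replicate 2 and 1503 without MSCT replicate 2. The 0 rows past an adjusted p of 0.05 became 387 with intensity-dependent variance, and 4 and 247 without the dimmest 25% and 50%. Among the 387 were *Foxa3* and *Gcg* (limma adjusted p = 0.00129 each), *Fabp1* (0.00467), *Cd68* (0.013), *Csf1r* (0.0259), *Fabp2* (0.0373) and *Cdkn1b* (0.0388). *Gata2*, *Isl1*, *Alpi*, *Apob*, *Cdk1*, *Retnlb* and *Elavl4* were not among them. Of 171 values of the 14 list genes named as past the screen, 155 kept their direction and side and 16 did not pass. Linear group means, without a p, are again included. The replicate number as a block left 0 members past the screen and changed no member's call (*Foxa2* at -0.45, adjusted p = 0.388, and *Gata4* at -0.53, adjusted p = 0.367, by limma). It moved the count over all rows from 850 to 971. The numbers are not stated to pair the rats, and the differences between replicates 1 and 2 of the groups correlated at 0.234 over rows, with 2 pairs. The row of lowest mean per gene was not run, because each gene had 1 row.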
